A study of Mus musculus with 16 samples.

Results

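Newly made RNA was compared between Mettl14 knockout and Control mouse embryonic stem cells after 20 min of labelling with 5-ethynyl uridine (EU). The comparison comprises 4 of the 16 libraries of the series, 2 of the conditional knockout (CKO) and 2 of the Control, both labelled for 20 min. This EU time was taken because its replicates were the closest outside 60 min, so the small spread between them was selected for and is no finding. The other 12 libraries are the same genotypes labelled for 10, 30 or 60 min, 2 libraries per genotype and time. The 10 and 60 min libraries served here for the estimate of the spread and as a comparison, and the 30 min libraries entered 1 alternative fit only.

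Both genotypes are C57BL/6 embryonic stem cells, cultured derivatives of the early embryo that can form all lineages of the body. All groups were grown in serum with LIF, the GSK3 inhibitor CHIR99021 and the MEK inhibitor PD0325901, a medium that holds the cells in a naive state. All groups received 0.5 mM EU, added 48 h after seeding. The labels name neither the Cre driver nor the deleted part of Mettl14, and do not say whether a genotype is 1 clone. They list 8 plates, the same number as combinations of genotype and EU time, and leave unsaid whether replicate libraries are separate cultures. The p-values therefore measure only the spread between these libraries, which may be technical, and if each group is 1 plate, a difference between plates cannot be told apart from one between genotypes.

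METTL14 pairs with the catalytic subunit METTL3, and the pair writes N6-methyladenosine onto RNA while it is being transcribed. METTL14 itself helps to bind the RNA substrate and holds the pair together. The study asks whether the rate of transcription changes when it is lost. EU enters RNA as it is synthesised, and its alkyne group lets labelled RNA be joined to biotin by click chemistry and captured, so a short pulse samples mainly RNA made during the pulse.

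Each library holds counts for 54446 mouse gene identifiers and 92 ERCC species, synthetic RNAs of which 0.01 µl was added to each sample after capture. No source used here pairs the identifiers with gene symbols: 0 matched. Genes are therefore given as groups, and 4 by identifier. The level of Mettl14, the gene lists that need symbols and the markers of stem cells and of other cell types were not analysed here, so neither the genotype label nor the cell type label was checked.

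The 4 libraries were alike in size. The Control libraries held 18446624 and 18494537 mouse counts and the CKO libraries 19092180 and 17858647. They detected 25036 and 25319 identifiers in Control and 26291 and 26214 in CKO. The 10 most abundant identifiers took 10.5% to 10.98% of the mouse counts in each library. The spread between replicates, by which this EU time was chosen, is given as a description. For the 9277 identifiers with a mean of at least 10 CPM (counts scaled to a common library size) at 20 min, the log2 ratio between replicates had a standard deviation of 0.18 in Control and 0.17 in CKO. The 4 pairings of a CKO with a Control library gave 0.30 to 0.31. Replicates still differed by more than counting noise, the chi-square divided by its degrees of freedom being 4.92 in Control and 4.12 in CKO.

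Captured RNA per spike-in was higher in CKO cells at 20 min. The Control libraries held 45.5 and 45.2 mouse counts per ERCC count and the CKO libraries 60.3 and 59.3. The genotypes did not overlap. The means were 45.4 ± 0.246 and 59.8 ± 0.668 (SD, n = 2 each), a 1.32-fold difference or 0.40 on the log2 scale (SE 0.01). With 2 libraries against 2, the exact permutation test (two-sided) gave p = 0.333, the smallest it allows. Since ERCC RNA was added after capture, cell number, RNA yield and capture yield cannot be told apart from the amount of labelled RNA per cell. Nor can an error in the amount of spike-in added.

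The difference was spread over the ERCC species and did not rest on 1 of them. Of 46 species with at least 20 counts in each of the 4 libraries, 41 were lower per mouse count in CKO. In 35 of the 46 both CKO libraries lay below both Control libraries, and in 1 they lay above. The species of a library come from 1 addition of spike-in and are divided by 1 mouse total. They are therefore not replicates, and cannot show an error in that addition. The median log2 difference per species was −0.39 (quartiles −0.49 and −0.23), with extremes of −0.98 and 0.36. The most abundant species, ERCC-00130, made up 30.0% of the ERCC counts, and without it the output difference was 0.35. The ERCC make-up of replicates differed more in Control, the chi-square divided by its degrees of freedom being 15.7 there and 3.32 in CKO. The corresponding log2 output differences were 1.40 (SE 0.14) at 10 min and 0.09 (SE 0.14) at 60 min. The 20 min value minus the mean of the other times was −0.34 (exact permutation test of genotype within EU time, 216 assignments, two-sided p = 0.472). That test reassigns genotype at every time, so it assumes no genotype difference at any of them. It therefore cannot decide whether the output difference changed between EU times.

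**Figure D1:**
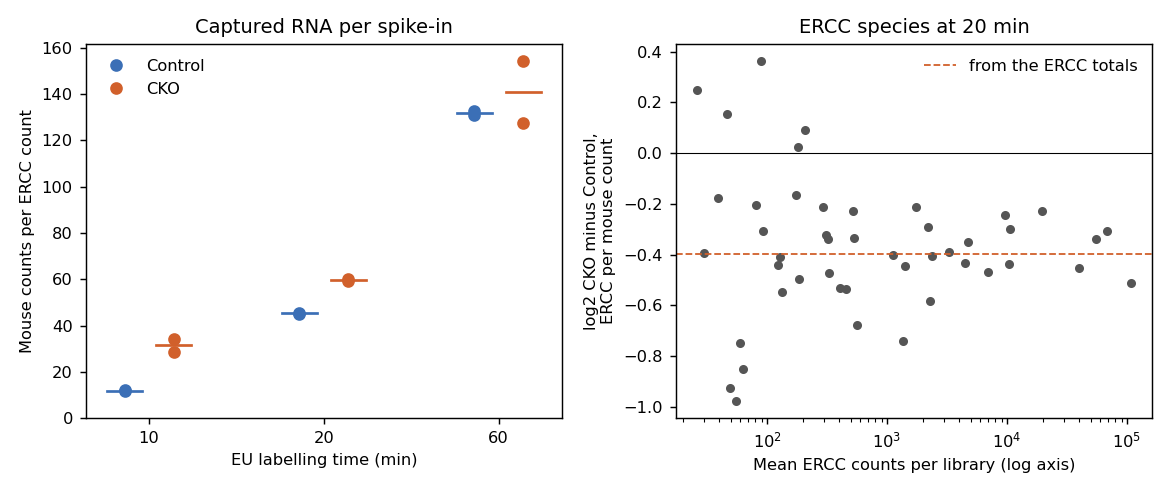
Left, mouse counts per ERCC count in each library at 10, 20 and 60 min of EU (points) with the group mean (line). At 20 min both CKO libraries (60.3 and 59.3) lie above both Control libraries (45.5 and 45.2). Right, log2 difference between CKO and Control in ERCC counts per mouse count, for each of the 46 species with at least 20 counts in every 20 min library, against its mean count; the dashed line is the value from the ERCC totals, and 41 points lie below 0.

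Relative to the bulk of the transcriptome, a set of RNAs rose and a smaller set fell in CKO cells at 20 min. With TMM scaling, which scales each library to the bulk of its genes, 384 of 20204 identifiers were called, 1.9% of those tested. Of these, 250 (1.24%) were higher and 134 (0.663%) lower in CKO (edgeR quasi-likelihood test, Benjamini-Hochberg adjusted p below 0.05). In all 384 the libraries of the genotypes did not overlap. Over all identifiers tested, 25% lay without overlap higher and 26.4% lower in CKO, so lack of overlap alone is common here. The median log2 fold change of all identifiers was −0.01.

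The called rises had larger fold changes than the called falls. Rises had a median log2 fold change of 0.68 (quartiles 0.49 and 0.95), and falls one of −0.48 (quartiles −0.61 and −0.39). Of the rises, 52 reached 2-fold, 100 lay between 1.5-fold and 2-fold and 98 were smaller. Of the falls, 9 reached 2-fold, 30 lay between 1.5-fold and 2-fold and 95 were smaller. The 250 risen RNAs together made up 4.02% and 3.99% of the mouse counts in the Control libraries and 5.76% and 5.77% in the CKO libraries. The 134 fallen RNAs made up 4.77% and 4.66% in Control and 3.58% and 3.52% in CKO.

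Calls were concentrated among abundant RNAs. Of 5 classes of equal size by abundance, the highest held 160 of the rises and 104 of the falls, the next 74 and 22, and the middle class 13 and 8. The class below held 3 rises and 0 falls, and the lowest held none of either at this threshold, while 2201 identifiers of all classes passed an unadjusted p of 0.05. In the 4 libraries fitted alone the lowest class, of which 2063 were tested, held 16 rises and 11 falls. The median log2 fold change of each class lay between −0.02 and 0.01, so on the TMM scale each class was centred near 0.

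The number of calls differed with the libraries that share the estimate of the spread. The 12 libraries of 10, 20 and 60 min share 1 estimate, with a common dispersion of 0.0605, whereas the 4 libraries of 20 min alone, chosen for their close replicates, gave 0.0111 and the 4 libraries of 10 min alone 0.15. Fitted alone, the 20 min libraries yielded 2353 calls of 18189 (12.9%), of which 1266 (6.96%) were higher and 1087 (5.98%) lower in CKO. All 384 calls were among them, with the same direction. Counts fell to between 84 and 96 when any 1 of the 4 libraries was left out of the 12. The spread assumed for the remaining library is then that of the other groups.

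**Figure D2:**
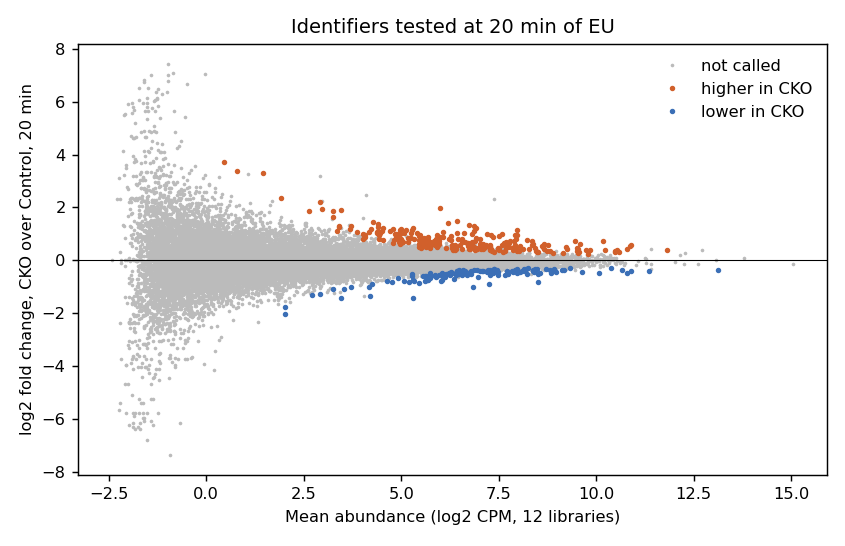
Log2 fold change of CKO over Control at 20 min against mean abundance (log2 CPM over 12 libraries) for the 20204 identifiers tested. Orange points (250) were called higher and blue points (134) lower in CKO, and they lie mostly among abundant identifiers.

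Among calls of at least 10 CPM without overlap, 240 rises and 129 falls, the identifier with the largest rise was ENSMUSG00000029816.10. Its level was 25.01 and 25.25 CPM in the Control libraries and 98.1 and 102 CPM in the CKO libraries at 20 min. Both CKO libraries were about equally high, far from both Control libraries. The means were 25.1 ± 0.167 and 100.3 ± 3.04 CPM (SD, n = 2), a 3.99-fold rise or 2.00 on the log2 scale (SE 0.14, edgeR, adjusted p = 1.26e-06). The same separation was present at the other times, with 32.8 ± 6.39 against 123 ± 14.3 CPM at 10 min and 23.5 ± 2.23 against 79.1 ± 3.06 CPM at 60 min (SD, n = 2).

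The next largest rise was that of ENSMUSG00000023913.17, a less abundant RNA. It had 7.29 and 3.48 CPM in Control and 20.3 and 20.0 CPM in CKO at 20 min. The CKO libraries were nearly equal, while the Control libraries differed from each other. The rise was 3.74-fold, or 1.90 on the log2 scale (SE 0.31, edgeR, adjusted p = 0.00286). Without the second Control library it was 1.47 and did not pass (edgeR, adjusted p = 0.0901). At 10 min the means were 5.40 ± 1.10 CPM in Control and 11.5 ± 1.73 CPM in CKO, and at 60 min 4.85 ± 0.876 and 17.6 ± 1.39 CPM (SD, n = 2).

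The largest fall was that of ENSMUSG00000038756.13, from 15.1 and 17.2 CPM in Control to 6.89 and 5.04 CPM in CKO. All 4 values are low, but the groups lay apart. The log2 fold change was −1.44 (SE 0.26, edgeR, adjusted p = 0.00497), a level 2.71-fold lower in CKO. It did not pass without the second Control library (−1.33, edgeR adjusted p = 0.11) or without the second CKO library (−1.22, edgeR adjusted p = 0.175). In the libraries of the other times the log2 fold change was −0.88 (SE 0.27, edgeR adjusted p = 0.046) at 10 min and −0.45 (SE 0.27, edgeR adjusted p = 0.563) at 60 min.

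The identifier with the next largest fall, ENSMUSG00000042010.16, had 64.7 and 62.7 CPM in Control and 24.7 and 23.4 CPM in CKO. The 2 libraries of each genotype were close together. The log2 fold change was −1.41 (SE 0.17, edgeR, adjusted p = 0.000166), a level 2.65-fold lower. Its mean in Control was 71.2 ± 17.6 CPM at 10 min and 43.3 ± 1.37 CPM at 60 min, and in CKO 13.98 ± 2.62 and 20.5 ± 1.90 CPM (SD, n = 2). The largest estimate of the gap was that at 10 min, with a log2 fold change of −2.35 (SE 0.21), against −1.08 (SE 0.20) at 60 min. Its difference at 20 min did not depart from the mean of the other times beyond the spread (edgeR, adjusted p = 0.644). The 20 min value lay between those of 10 and 60 min. A contrast with their mean therefore cannot decide whether the gap changed with EU time.

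**Figure D3:**
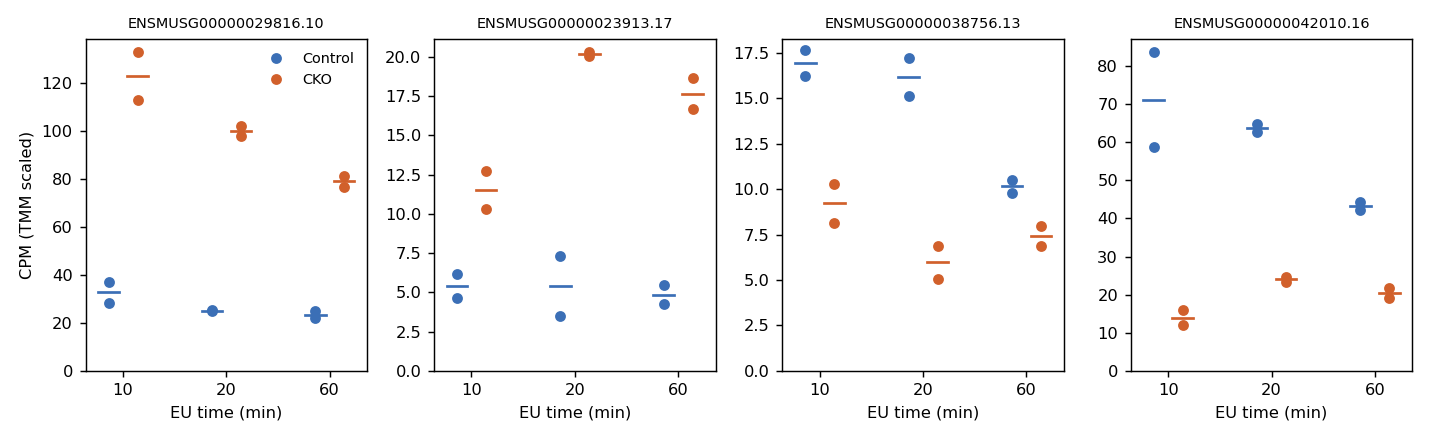
Level (TMM-scaled CPM) of the 4 identifiers in each library at 10, 20 and 60 min of EU; points are libraries and lines the means of 2. At 20 min the 2 identifiers on the left lie higher in both CKO libraries (98.1 and 102 CPM; 20.3 and 20.0 CPM) and those on the right lower (6.89 and 5.04 CPM; 24.7 and 23.4 CPM), with no overlap.

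Most RNAs called at 20 min had the same direction at the other labelling times. The 10 and 60 min libraries share no sample with the 20 min libraries, and were fitted for this purpose without them. Of the 250 rises, 235 were also positive at 10 min, 246 at 60 min and 232 at both. Of the 134 falls, 126 were negative at 10 min, 105 at 60 min and 99 at both. Among all 19026 identifiers tested in both fits, 42.8% had 1 sign at all 3 times, against 92.8% of the rises and 73.9% of the falls. For the 9277 identifiers of at least 10 CPM that share was 48.5%.

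The 250 rises and 134 falls had medians of the same sign at all 3 times. The 250 rises had a median log2 fold change of 0.68 at 20 min, 0.69 at 10 min and 0.59 at 60 min. The 134 falls had −0.48 at 20 min, −0.57 at 10 min and −0.31 at 60 min. The 20 min values chose these members, so their medians at 20 min are no check. The 10 and 60 min libraries entered the filter, scaling and spread behind the calls, so the other times are not a fully separate check either. Across the 9277 identifiers of at least 10 CPM, the fold changes at 20 min had a Pearson r of 0.509 with those at 10 min (Spearman rho 0.471) and 0.514 with those at 60 min (rho 0.460). These describe genes, which are not independent replicates and share their library's depth and scaling. The standard deviation of the fold changes was 0.28 at 20 min, 0.51 at 10 min and 0.33 at 60 min.

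When only the 10 and 60 min libraries were fitted, 16.1% of 19026 identifiers passed the test at 10 min, 7.95% higher and 8.16% lower, and 1.42% at 60 min, 0.983% higher and 0.442% lower. Of the 250 rises at 20 min, 164 were also called higher at 10 min and 100 at 60 min, and 190 at either. Of the 134 falls, 95 were also called lower at 10 min and 32 at 60 min, and 101 at either. In turn, the 164 shared rises were 10.8% of the 1512 identifiers called higher at 10 min, and the 100 were 53.5% of the 187 called higher at 60 min. The 95 shared falls were 6.12% of 1552 at 10 min and the 32 were 38.1% of 84 at 60 min. Opposite calls at 10 min were 1 among the rises and 1 among the falls. At 60 min they were 0 among the rises and 5 among the falls. Over all 19026 identifiers, 2455 calls at 10 min had the sign of the 20 min value and 609 the opposite sign. At 60 min these were 241 and 30, so relative to same-sign calls, opposite calls among the falls were not rarer there.

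**Figure D4:**
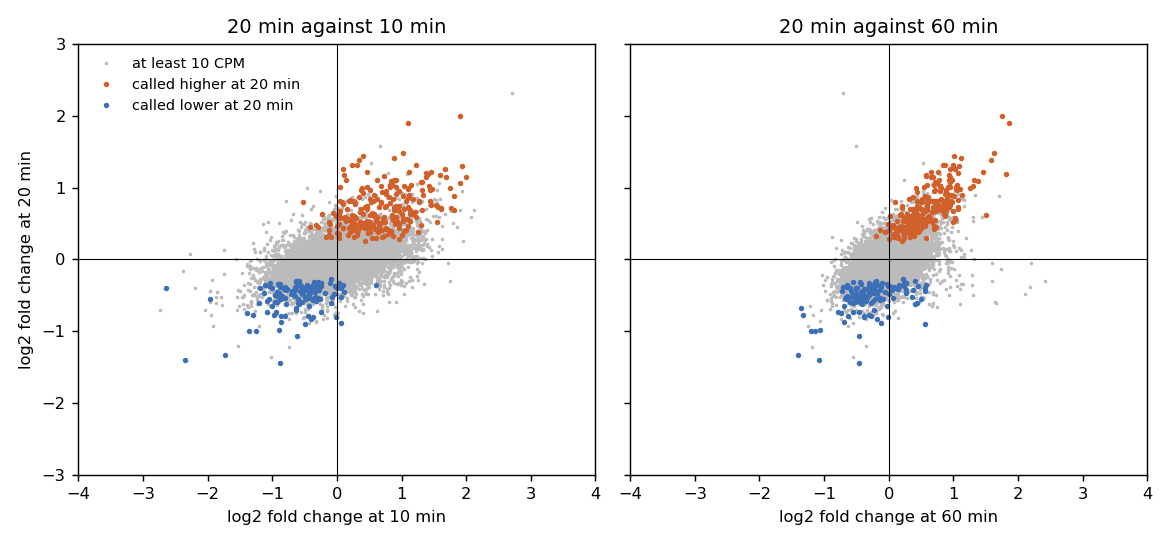
Log2 fold change of CKO over Control at 20 min against that at 10 min (left) and 60 min (right), each time measured in its own libraries, for the 9277 identifiers of at least 10 CPM. Orange points are the 240 called rises and blue points the 129 called falls at this level. Counted over all 250 called rises, 235 were positive at 10 min and 246 at 60 min. Over all 134 called falls, 126 and 105 were negative.

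Groups formed at the other times alone were then followed at 20 min. The 107 identifiers called higher in CKO at both 10 and 60 min had a median log2 fold change of 0.68 at 20 min (quartiles 0.37 and 0.91), and 104 of them were positive. In 102 of the 107 both CKO libraries lay above both Control libraries. Of these identifiers 74 were called higher at 20 min and 0 lower, and with the 20 min libraries fitted alone 98 and 0. The 50 identifiers called lower at both times had a median of −0.40 (quartiles −0.55 and −0.31), and all 50 were negative. In 49 of the 50 the libraries lay apart in that direction, and 26 were called lower at 20 min, or 48 in the fit of 4 libraries. Over all identifiers tested, 25% lay without overlap higher and 26.4% lower in CKO. The shares called over all identifiers were 1.24% higher and 0.663% lower, or 6.96% and 5.98% in the fit of 4.

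RNAs called at 10 min but not at 60 min mostly had the same direction at 20 min, with small fold changes. Of 1405 that were higher only at 10 min, 1095 (77.9%) were positive, with a median of 0.18. Of 1491 that were lower only at 10 min, 1197 were negative, with a median of −0.17. In the fit of the 4 libraries, 419 of 1378 tested in the first group were called higher and 14 lower, and 388 of 1465 in the second were called lower and 19 higher. Over all 18189 identifiers of that fit, 6.96% were called higher and 5.98% lower. Their medians at 10 min had been 0.86 and −0.72. Those medians come from the values that chose the groups.

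The groups called at 60 min but not at 10 min were smaller. Of 69 higher only at 60 min, 56 were positive at 20 min, with a median of 0.28. In the fit of 4 libraries, 45 of them (65.2%) were called higher and 5 (7.25%) lower. Of 34 lower only at 60 min, 5 were positive, with a median of −0.20, and 15 were called lower and 0 higher in the same fit. Over all identifiers, 6.96% were called higher and 5.98% lower in that fit, and 1.24% and 0.663% in the fit of 12 libraries. No identifier was called higher at 10 min and lower at 60 min, and 11 were called lower at 10 min and higher at 60 min. These 11 are very abundant, with a median of 631 CPM. At 20 min 9 of them were negative, with a median of −0.21, and 5 were called lower and 0 higher in the fit of 12 libraries, or 8 lower and 2 higher in the fit of 4, so most stood on the side of the 10 min libraries.

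**Figure D5:**
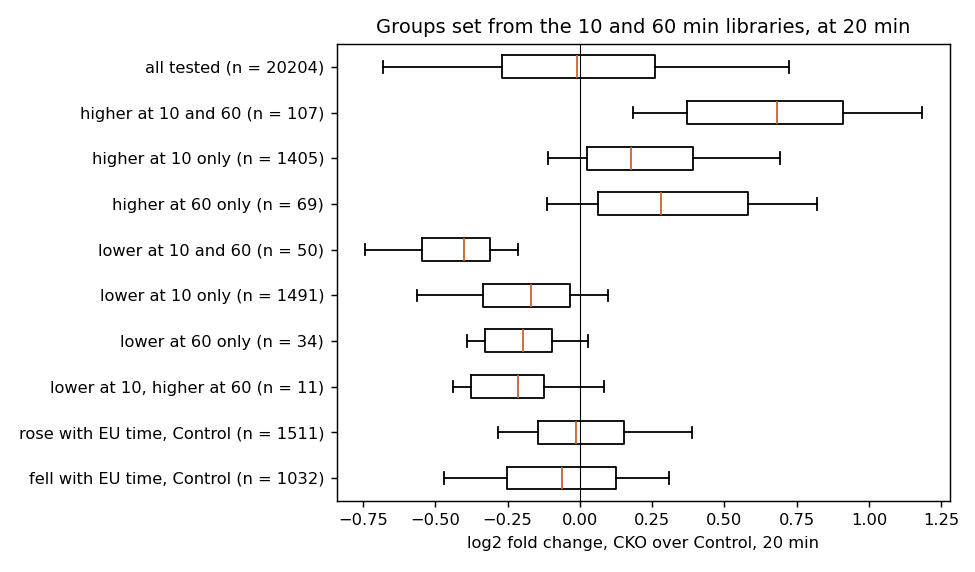
Log2 fold change of CKO over Control at 20 min in groups that were formed from the 10 and 60 min libraries alone. Boxes span the quartiles, the inner line is the median and whiskers reach the 10th and 90th percentiles. The groups that differed at both times lie farthest from 0 (medians 0.68 and −0.40), whereas those that rose or fell with EU time in Control lie near it (−0.01 and −0.06).

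A direct test found few RNAs whose difference at 20 min departed from the mean of 10 and 60 min. It called 23 of 20204 identifiers (0.114%), 8 of them higher (0.0396%) and 15 lower (0.0742%) at 20 min than that mean (edgeR, Benjamini-Hochberg). The 8 had medians of 0.07 at 20 min, −0.999 at 10 min and −0.003 at 60 min. They were therefore RNAs that were lower in CKO at 10 min, and 0 of the 8 were positive there. The 15 had medians of −0.14 at 20 min, 0.67 at 10 min and 0.45 at 60 min. Of these, 13 were positive at 10 min, 15 at 60 min and 1 at 20 min. The values of all 3 times entered the test that chose the 23, so these medians and signs describe the members and are no check. The 23 were abundant, between 44.5 and 1515 CPM. This count depended on the settings: it was 13 with library totals and 410 with DESeq2, and it fell to between 1 and 3 when any 1 of the 20 min libraries was left out.

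Labelling time itself changes which RNAs are captured, so RNAs that gain or lose share with a longer pulse were examined at 20 min. From 10 to 60 min in Control, 1511 identifiers rose (7.94%) and 1032 fell (5.42%; edgeR, Benjamini-Hochberg, 8 libraries). At 20 min the 1511 that gained share had a median log2 fold change of −0.01 between the genotypes (quartiles −0.14 and 0.15), and 725 of them were positive. The 1032 that lost share had a median of −0.06 (quartiles −0.25 and 0.13), and 424 were positive. As a share of the library, the first group took 19.09% and 19.24% in Control and 19.9% in both CKO libraries, and the second 15.8% and 15.6% in Control and 15.4% and 15.6% in CKO. In the fit of 4 libraries, 210 of 1509 in the first group were called higher and 154 lower, and 99 and 115 of 1030 in the second. For all 9277 identifiers of at least 10 CPM these shares were 11.5% higher and 10.4% lower.

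The rises at 20 min can also be read against these groups. Of the 250 rises, 76 (30.4%) had gained share in Control and 22 (8.8%) had lost it. Of the 134 falls, 21 (15.7%) had gained and 20 (14.9%) had lost share. Among all identifiers of at least 10 CPM, 15.0% had gained and 8.12% had lost share.

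Genes whose RNA marks a phase of the cell cycle were described from a list of gene pairs for mouse cells that comes with the scran package and names genes by Ensembl identifier. Only genes that lead pairs of a single phase were used, and all of them were measured and tested. Another 587 genes, which lead pairs of several phases, were left out. Over all identifiers, 1.24% were called higher and 0.663% lower in the fit of 12 libraries, and 6.96% and 5.98% in the fit of 4. Median levels were 221 CPM for the G1, 23.8 for the S and 45.7 for the G2/M genes, against 7.35 over all identifiers. Among the 9277 identifiers of at least 10 CPM, 11.5% were called higher and 10.4% lower in the fit of 4. Of 11 G1 genes, 2 were called higher and 1 lower in CKO at 20 min, or 3 and 2 in the fit of 4 libraries, with a median log2 fold change of 0.02. Of 37 S phase genes, 0 were called, or 5 higher and 3 lower in the fit of 4, with a median of −0.01. Of 30 G2/M genes, 1 was called higher and 1 lower, or 3 and 5 in the fit of 4, with a median of −0.13, and 11 were positive. The lists are short, the calls went both ways, and the list was added after the files had been seen.

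Scaling by the spike-in moved the whole distribution. The median log2 fold change of all identifiers became 0.39, and 2350 of 20204 were called (11.6%), 2343 of them higher in CKO (11.6%) and 7 lower (0.0346%; edgeR, Benjamini-Hochberg). This scaling shifts every identifier by about the output difference, 0.40, and treats that shift as free of error. The adjusted p-values therefore leave out the uncertainty of the output difference, for which the exact permutation test gave p = 0.333. The shift adds to every relative rise, and all 250 were also called higher per spike-in, with a median of 1.09. Of the 134 relative falls, 6 were called lower and 0 higher per spike-in, with a median of −0.07, and 44 were positive. The 50 identifiers lower at both other times had a median of 0.01 at 20 min on this scale, against −0.40 relative to the bulk. Both falls named above kept their direction and call, with log2 fold changes of −1.029 and −1.001 (edgeR, adjusted p = 0.0239 and 0.00288).

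The number of RNAs seen in a single genotype depended on the count asked for. With 0 counts in both Control libraries and at least 1 in each CKO library there were 723 of the 54446 identifiers, and in the reverse case 413. The CKO libraries also detected more identifiers in all, 26291 and 26214 against 25036 and 25319 in Control. With 0 counts in both Control libraries and at least 10 in each CKO library there were 6 identifiers, holding 187 counts in all. The reverse held for 2 identifiers with 67 counts. No identifier of either kind had more than 26 counts in a library. A count of 0 allows up to 3 counts in a library of the same depth, by counting error alone.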

How the data were processed

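The deposited files hold raw read counts for each gene identifier, without normalisation. The submitters' processing notes name HISAT2 2.1.0, HTSeq, CASAVA, Trimmomatic 0.38 and the mm10 build. Annotation release, strand setting and counted feature were not given in the sources used here. Overlapping, antisense and near-identical genes therefore have uncertain counts.

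Mouse identifiers were filtered by group with edgeR 4.0.16 (R 4.3.3) in 12 libraries (20204 kept, 99.9% of counts), scaled by TMM, fitted with 6 group means (robust quasi-likelihood) and tested for CKO minus Control at 20 min. Standard errors come from the F statistic. The 30 min libraries stayed out because earlier results of these data showed the CKO libraries apart from the rest; with all 16 the common dispersion was 0.142, against 0.0605. By chi-square over its degrees of freedom, which grows with depth, replicates differed by 18.4 at CKO 30 min, 4.36 at Control 30 min and 23.5 at CKO 60 min, which was kept. Simulated data with 2-fold changes of 200 genes (19425 tested) returned 41.0% of them, and 1.5-fold changes (19443 tested) 18.5%. The false share of calls was 10.9% and 5.13%.

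Named identifiers are the 2 largest rises and falls among calls of at least 10 CPM without overlap. The part of the rule that needs symbols and the gene lists could not be applied. Comparisons, groups and lists were chosen with earlier results of these data known. Replicate numbers were not used to pair the libraries in the main fit. Alternatives were DESeq2 1.42.0, other scalings, filters and sample sets, and a replicate block.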

Additional observations from a re-analysis of the deposited data

Results flagged for a closer look

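The difference between CKO and Control at 20 min departed from the mean of that at 10 and 60 min for 23 identifiers (edgeR, Benjamini-Hochberg). It is flagged as a difference between EU times and was computed with a direct contrast over 12 libraries. The count depended on the settings, being 6 with the replicate block and 410 with DESeq2. A contrast with the mean of 2 times does not say from which of them the 20 min value departed.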

How the results depend on the processing

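The count of calls at 20 min stayed within 1.5 times of 384 with DESeq2 size factors, library totals, no filter, a stricter filter, all 16 libraries (264), without the 60 min libraries (309) and with the replicate block (345, 234 higher). It was 2350 with ERCC totals as library sizes, 2353 with the 4 libraries alone, 1521 without the 10 min libraries (a setting chosen after seeing the data, as was that without the 60 min libraries), 677 with DESeq2 and 84 to 96 without single libraries. The rises made up 65.1% of the calls, 99.7% with ERCC totals, 53.8% in the 4 libraries alone and 84.8% to 91.7% without single libraries. The count of differences from 10 and 60 min, 23, was 13 with library totals, 367 with ERCC totals, 360 without a filter, 12 with the stricter filter, 61 with all 16 libraries, 6 with the replicate block, 410 with DESeq2 and 1 to 3 without single libraries. The output difference lay between 0.35 and 0.41 throughout. Deviations of same-numbered libraries of Control and CKO at 20 min had a correlation of 0.01. This shows no shared deviation but cannot decide whether the numbers pair the libraries. The replicate block changed the call of none of the 4 identifiers. None of the 4 named identifiers changed its direction in any setting, and 2 of the 4 lost their call without a single library. In the lowest abundance class none was called with 12 libraries, and 16 higher and 11 lower with the 4 libraries alone.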
